A study of Mus musculus with 16 samples.

Results

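BMAL1 binding was compared between ZT12 and ZT0 in livers of control mice, within each sex. The comparison used 4 of the 16 samples of the series, which were the BMAL1 libraries of control males at ZT0 and ZT12 and of control females at ZT0 and ZT12. Among the 7043 merged peak intervals of the series, 706 were called in at least 1 of these 4 libraries. The intervals followed here were the 15 called at ZT12 and not at ZT0 in both sexes (termed gained), the 16 called at ZT0 and not at ZT12 in both sexes (termed lost), and the 39 called in all 4 libraries. Gained and lost describe calls in a peak list and not a tested change.

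All mice were C57bl6, 8 to 16 weeks old, held in 12 h of light and 12 h of dark, and moved from chow to a diet with 42% of calories from fat when the control or misalignment paradigm began. ZT0 is lights on and ZT12 is lights off. Each library was chromatin from the pooled livers of 3 to 4 mice, precipitated with a rabbit antibody against Bmal1, and each group had 1 library. There was thus no replicate within a group, and the sexes serve as a repeat of the time comparison. With 2 pairs, exact flipping of the signs cannot give a two-sided p below 0.5, so no test was made. The 8 IgG libraries were not used here.

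BMAL1 is a transcription factor that binds DNA as a partner of CLOCK, at a short motif called the E-box. The pair switches on its own repressors, the Per and Cry genes, and the nuclear receptor genes Nr1d1 and Nr1d2 (REV-ERB), whose products then shut the pair down in a daily cycle. In mouse liver, BMAL1 is known to sit on DNA mainly during the light phase, and the clock also drives genes of sugar, lipid and drug metabolism.

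The promoters of 7 members are printed below, to show the E-box where BMAL1 peaks of each kind lay. They are RefSeq sequences of GRCm38.p6, running from 250 bases before to 50 bases after the gene start, 5′ to 3′ on the gene's strand. Capitals mark the E-box CACGTG and the related CACGTT, searched on both strands, so that CACGTT also appears as AACGTG.
Golga5, gained, chr12:102468884-102469183 (plus strand): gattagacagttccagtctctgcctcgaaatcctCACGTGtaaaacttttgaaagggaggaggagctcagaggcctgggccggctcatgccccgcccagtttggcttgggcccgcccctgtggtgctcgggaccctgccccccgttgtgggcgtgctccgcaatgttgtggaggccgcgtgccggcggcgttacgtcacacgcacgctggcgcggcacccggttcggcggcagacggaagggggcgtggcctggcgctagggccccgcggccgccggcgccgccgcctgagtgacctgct
Tspan4, gained, chr7:141476130-141476429 (plus strand): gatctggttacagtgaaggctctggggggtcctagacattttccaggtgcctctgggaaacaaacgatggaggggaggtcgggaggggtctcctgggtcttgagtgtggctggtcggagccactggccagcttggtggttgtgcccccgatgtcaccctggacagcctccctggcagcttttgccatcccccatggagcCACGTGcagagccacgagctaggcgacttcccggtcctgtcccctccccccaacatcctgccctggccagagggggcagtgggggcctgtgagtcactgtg
Junb, gained, chr8:84978699-84978998 (minus strand): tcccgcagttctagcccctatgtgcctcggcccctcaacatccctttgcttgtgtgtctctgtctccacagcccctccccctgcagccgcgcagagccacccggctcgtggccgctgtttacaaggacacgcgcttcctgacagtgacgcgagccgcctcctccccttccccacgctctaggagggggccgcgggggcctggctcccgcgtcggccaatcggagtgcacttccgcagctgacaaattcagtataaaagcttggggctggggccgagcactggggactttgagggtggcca
Ciart, called in all 4, chr3:95882179-95882478 (minus strand): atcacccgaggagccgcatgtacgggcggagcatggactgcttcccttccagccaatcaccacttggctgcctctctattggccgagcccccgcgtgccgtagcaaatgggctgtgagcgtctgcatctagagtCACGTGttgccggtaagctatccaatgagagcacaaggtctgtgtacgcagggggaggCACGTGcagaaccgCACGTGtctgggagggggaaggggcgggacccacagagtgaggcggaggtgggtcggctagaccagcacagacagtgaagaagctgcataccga
Cry1, called in all 4, chr10:85185005-85185304 (minus strand): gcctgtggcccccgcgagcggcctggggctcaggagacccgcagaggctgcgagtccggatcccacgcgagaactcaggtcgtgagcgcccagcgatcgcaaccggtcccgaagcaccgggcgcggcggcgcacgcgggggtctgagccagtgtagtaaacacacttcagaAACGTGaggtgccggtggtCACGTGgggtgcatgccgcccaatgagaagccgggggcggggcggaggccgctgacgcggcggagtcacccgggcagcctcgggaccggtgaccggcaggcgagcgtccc
Pip4p1, lost, chr14:50930800-50931099 (minus strand): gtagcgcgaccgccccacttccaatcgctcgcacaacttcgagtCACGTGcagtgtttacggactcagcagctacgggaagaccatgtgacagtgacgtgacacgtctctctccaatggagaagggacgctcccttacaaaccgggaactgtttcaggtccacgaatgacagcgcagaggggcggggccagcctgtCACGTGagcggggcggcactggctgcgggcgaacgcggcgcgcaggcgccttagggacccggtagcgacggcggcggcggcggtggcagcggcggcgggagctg
Tbcel, lost, chr9:42472189-42472488 (minus strand): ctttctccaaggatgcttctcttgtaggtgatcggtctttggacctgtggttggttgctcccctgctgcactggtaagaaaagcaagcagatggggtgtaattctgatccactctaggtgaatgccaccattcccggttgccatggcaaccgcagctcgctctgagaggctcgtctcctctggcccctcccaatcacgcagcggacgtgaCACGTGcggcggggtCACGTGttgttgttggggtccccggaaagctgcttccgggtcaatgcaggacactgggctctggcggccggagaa

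The Ciart promoter held 3 copies of CACGTG, those of Pip4p1 and Tbcel 2 each, those of Golga5, Tspan4 and Cry1 1 each, and that of Junb none. Cry1 also held 1 CACGTT. Where an interval covered at least 150 bases of a promoter window, 1 window was taken for it. CACGTG then stood in 2 of 4 gained windows, 5 of 10 lost windows and 8 of 17 windows of the intervals called in all 4. Over all control intervals it stood in 82 of 203 windows (40.4%), and in 7.84% of the 21238 RefSeq promoter windows of coding genes. CACGTT stood in 0 of 4 gained, 3 of 10 lost and 3 of 17 shared windows, beside 4.68% of all coding windows. E-boxes were thus found in promoters of all 3 sets, and these small numbers do not separate gained from lost.

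Distances from the peak summits to these motifs were measured. Over the 15 member windows with a CACGTG, the 46 summits called in the control libraries lay 0 to 386 bp from the nearest copy, with a median of 56 bp, and 31 lay within 100 bp. At Ciart the distance was 24 bp in male ZT0, 18 bp in male ZT12, 28 bp in female ZT0 and 4 bp in female ZT12. At Tbcel it was 24 bp in male ZT0 and 6 bp in female ZT0. At Tspan4 it was 12 bp in male ZT12 and 56 bp in female ZT12, and at Golga5 162 bp and 128 bp. At Tef it was 250 to 336 bp and at Pcbp1 244 to 300 bp over the 4 libraries. Only the promoter window was searched, so a nearer motif outside it was not seen. The windows were chosen to hold a motif and to be covered by an interval, which by itself favours short distances. No expected distance was computed, so closeness to the motif was not tested.

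The libraries differed in size. The list held 373 peaks in male ZT0, 290 in male ZT12, 225 in female ZT0 and 141 in female ZT12. The ratio of ZT12 to ZT0 was 0.777 in males (95% interval 0.665 to 0.909) and 0.627 in females (0.504 to 0.777), where the intervals cover counting error only. The female ZT0 list was the weakest. Its median -log10 q, the authors' measure of peak confidence, was 3.41, against 10.4 in male ZT0, 12.4 in male ZT12 and 11.5 in female ZT12. With peaks of -log10 q of at least 3 the female lists held 128 and 125 peaks, a ratio of 0.977. The read depth is not given in the sources used here. Summit fragment counts recovered from the peak caller's values gave the lowest local background of each list, which was 0.712 times as high in male ZT12 as in male ZT0 and 1.17 times as high in female ZT12 as in female ZT0. Below, the strength of a peak is its summit fragments minus its local background, in multiples of that lowest background. Dividing by it is 1 choice of scale between libraries, so counts that change without that division, in net summit fragments, are given on both scales. Peaks over a local background 5 or more times the lowest are called peaks of high background.

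Most calls were not shared. Of the 706 intervals, 521 (73.8%) were called in 1 control library, 101 in 2, 45 in 3 and 39 in all 4. In the male pair 155 intervals (22% of 706) were gained, 236 (33.4%) were lost and 131 (18.6%) were called at both times. In the female pair 96 (13.6%) were gained, 181 (25.6%) were lost and 42 (5.95%) were called at both times. The sexes changed in opposite ways at 6 intervals gained in males and lost in females (0.85%) and at 14 of the reverse kind (1.98%). By overlap of at least 1 bp, 36.5% of male ZT0 peaks (95% interval 31.6% to 41.6%) had a ZT12 peak, and 46.6% of male ZT12 peaks (40.7% to 52.5%) had a ZT0 peak. The female shares were 19.1% (14.2% to 24.9%) and 30.5% (23% to 38.8%), so fewer peaks were shared in the female pair in either direction. All share intervals here are exact Clopper-Pearson intervals and cover counting error only.

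The 15 intervals gained in both pairs (2.12% of 706) included 1 site nearest a core clock gene, Bhlhe41, and promoter sites at Golga5, Tspan4 and Junb. The share of core clock sites over all 706 is not given here, so this 1 site does not mark the set as clock related. Their -log10 q ran from 3.63 to 38.8 with a median of 16.5 in male ZT12, and from 3.89 to 34.5 with a median of 12.9 in female ZT12. Summit fragments ran from 31 to 95 in males and from 31 to 107 in females. An interval with no call has no value in the files, so a gained interval was below the caller's threshold at ZT0 and not at zero. For scale, the fewest summit fragments in a called peak with a low local background were 21 in male ZT0 and 17 in female ZT0. Leaving out 2 members with high background, all 13 others were stronger at ZT12 than the median peak of the ZT0 list of their sex. That median was 4.7 in male ZT0 and 3.67 in female ZT0, and the members had medians of 8.61 in male ZT12 and 6.72 in female ZT12. By net summit fragments, 12 of 13 were above in males and 13 of 13 in females. The members were chosen by their ZT12 calls, and the ZT12 lists had median strengths of 7.12 in males and 6.25 in females. Standing above the ZT0 median is therefore no evidence of a change between the times.

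Bhlhe41, also known as DEC2, represses E-box genes and was the core clock gene among the gained members. Its interval lay between genes, 9296 bp from the annotated start (TSS), on chromosome 6 from 145855627 to 145856385. It had 65 summit fragments in male ZT12 (95% Poisson interval 50.2 to 82.8, counting error only) and 62 in female ZT12 (47.5 to 79.5). Its -log10 q was 28.1 in male ZT12 and 23.2 in female ZT12. It was not called at ZT0 in either sex. Its relative Bhlhe40, by contrast, was called in all 4 libraries.

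The strongest gained members by strength in males were Gm21786 and Junb. The interval nearest Gm21786 (chromosome 6, 50041865 to 50042462) lay at a gene end and had a strength of 14.8 in male ZT12 and 8.87 in female ZT12. Junb encodes a subunit of the AP-1 transcription factor. Its promoter interval (chromosome 8, 84978631 to 84979147) had a strength of 14.7 in male ZT12 and 9 in female ZT12, with a -log10 q of 34.8 and 16. Tspan4, a membrane scaffold protein of the tetraspanin family, had a strength of 12.6 and 8.96 at its promoter (chromosome 7, 141475950 to 141476892). The interval nearest Lsm3, 83199 bp from its TSS, had the highest female strength of the 15, 9.59, beside 9.17 in male ZT12. These 4 members were each stronger than the median gained member in both ZT12 libraries.

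G6pc encodes the catalytic subunit of glucose-6-phosphatase, the last step of glucose release by the liver. The interval beyond it (chromosome 11, 101378588 to 101379426, 11446 bp from the TSS and 685 bp from the RefSeq gene body) was among the weakest members, with a -log10 q of 7.48 in male ZT12 and 3.89 in female ZT12. It had 31 summit fragments in each. Por encodes the reductase that supplies electrons to cytochrome P450 enzymes. A gained interval covered a RefSeq start of Por (chromosome 5, 135688274 to 135689220, annotated by the authors to Gm16061) with a -log10 q of 8.17 in male ZT12 and 8.69 in female ZT12. A further interval 246 bp from the TSS of Por was called in male ZT12 (-log10 q 31.8) and in no other control library.

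The other gained members were these. Golga5, a Golgi tether, had a promoter interval (chromosome 12, 102468783 to 102469292) with a -log10 q of 12.2 in male ZT12 and 13.3 in female ZT12. The interval upstream of the kinase gene Pim3 (chromosome 15, 88850318 to 88850884) had 13.9 and 12.9. Gm37216, within the gene of the zinc finger protein Zfp407, had 16.5 and 9.72. Of these 3 only Golga5 had the higher value in females. E530001K10Rik had a -log10 q of 17.1 in males and 9.71 in females. Gm14165 had 17.9 and 7.65. Gm15653, 5869 bp from Dcun1d4, had 12.4 and 15.6. The remaining 2, at Gm16505 (3.63 and 5.47) and Gm10715 (9.63 and 4.37), lay in regions of high background.

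The 16 intervals lost in both pairs (2.27% of 706) lay mostly at promoters, and none was nearest a core clock gene. As the share of such sites over all 706 is not given here, that absence does not mark the set as outside the clock. Their -log10 q ran from 4.18 to 17.2 with a median of 10.7 in male ZT0, and from 1.3 to 7.44 with a median of 4.08 in female ZT0. Their strengths were low, 3.06 to 6.73 in male ZT0 and 3.26 to 5.75 in female ZT0. No member exceeded the median strength of the ZT12 list of its sex, which was 7.12 in males and 6.25 in females, and all 16 exceeded the lowest, 2.65 in males and 2.5 in females. By net summit fragments, 7 of the 16 exceeded the male ZT12 median of 31.3 and 0 exceeded the female ZT12 median of 35.4. With peaks of -log10 q of at least 3, 10 of the 16 were still lost in both pairs. The position of the lost members within the male ZT12 list therefore depended on the scale. Whether the weak female ZT0 list accounts for the lost calls was not tested.

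**Figure D1:**
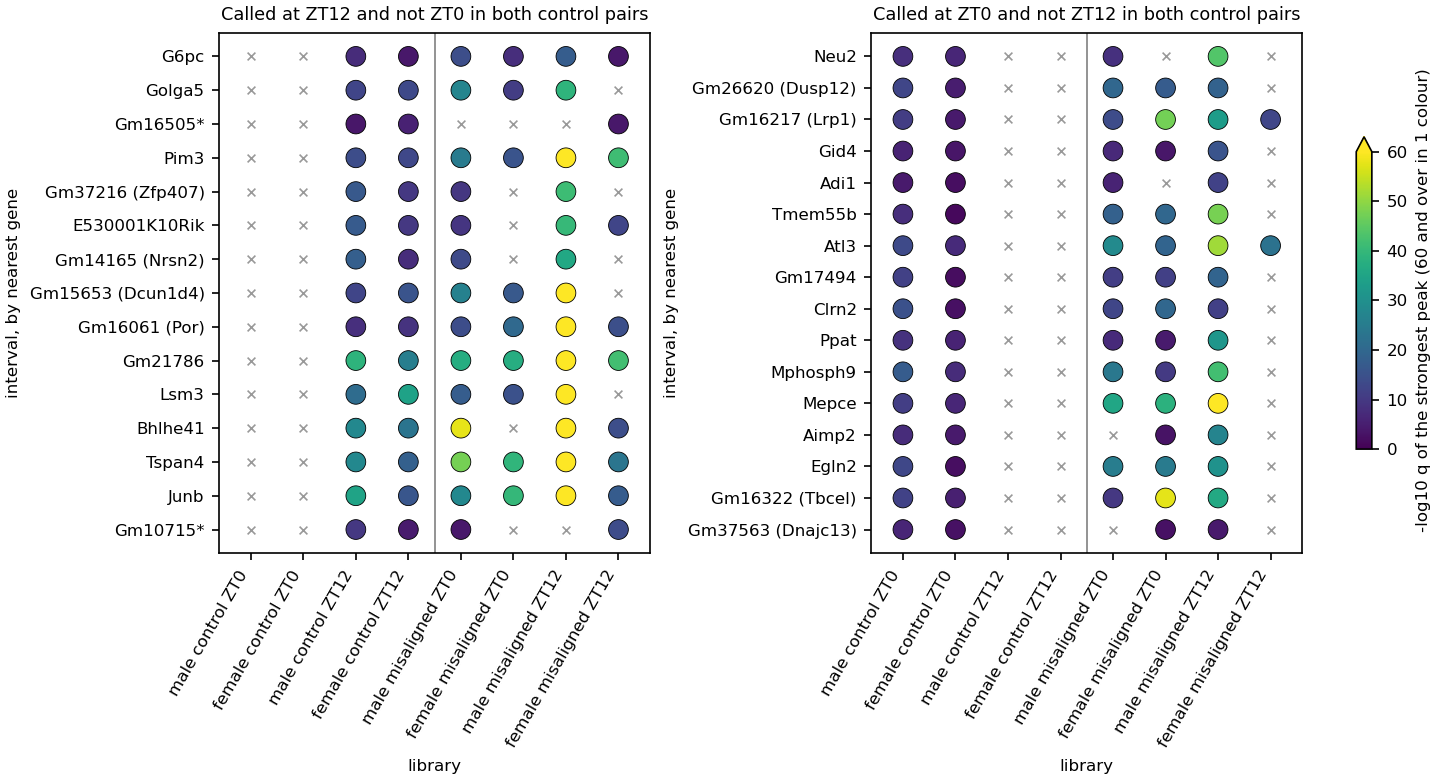
The -log10 q of the strongest peak (colour) in each of the 8 BMAL1 libraries (x axis) for the 15 gained intervals (left) and the 16 lost intervals (right), named by nearest gene with the nearest RefSeq coding gene in parentheses; crosses mark no call and asterisks high background. Left of the vertical line stand the control libraries that defined the sets, and right of it the misaligned libraries, which they did not use: female misaligned ZT12 called 2 of the 16 lost intervals.

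The interval between Ppat and Paics, neighbouring genes that encode enzymes of purine synthesis, lay on chromosome 5 from 76950869 to 76951972 and had a -log10 q of 8.49 in male ZT0 and 5.68 in female ZT0. Qdpr encodes the reductase that restores tetrahydrobiopterin, and its promoter interval (annotated to Clrn2) had 14.8 and 2.39. Adi1, an enzyme of methionine salvage, had an intron interval with 4.18 and 2.32. All 3 had a higher -log10 q in the male than in the female ZT0 library, as did each of the 16.

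Mepce, which caps the 7SK RNA, had a -log10 q of 10.8 in male ZT0 and 6.51 in female ZT0. Aimp2, a scaffold of the tRNA synthetase complex, had 7.45 and 4.05. Gid4, a subunit of a ubiquitin ligase, had 5.63 and 3.44, over a start region it shares with Atpaf2, a factor for assembling the mitochondrial ATP synthase. Dnajc13, an endosomal co-chaperone (the interval is annotated to Gm37563), had 6.26 and 2.74. The highest male value of the 16 was at Mphosph9 (chromosome 5, 124327251 to 124328231), with 17.2 in male ZT0 and 7.44 in female ZT0, and 50 and 36 summit fragments.

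Egln2, a prolyl hydroxylase of the oxygen-sensing pathway, had a -log10 q of 12.7 in male ZT0 and 2.16 in female ZT0. Pip4p1 (also Tmem55b), a lysosomal membrane protein, had 7.79 and 1.3, and Atl3, which shapes the endoplasmic reticulum, had 13.5 and 7.17. The interval at Gm16217, 347 bp from Lrp1, a lipoprotein receptor gene, had 10.6 and 4.1. The weakest female value, 1.3, equals the lowest of the whole female ZT0 list, so at Pip4p1 the call stood at the caller's limit. Tbcel, a tubulin-binding protein (annotated to Gm16322), had 11.8 and 5.23, and the phosphatase gene Dusp12 (annotated to Gm26620) had 12.6 and 4.71. Neu2, a sialidase, had 7.98 and 6.37, over an interval that also covered 191 bases of the Ngef promoter window. Gm17494, 27659 bp from the nearest coding gene, had 11.6 and 1.97.

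Location was not used to choose the sets. It differed between them, but the promoter contrast did not appear in the female pair taken alone. In the authors' annotation 14 of 16 lost intervals (87.5%, exact 95% interval 61.7% to 98.4%) were promoters, beside 6 of 15 gained (40%, 16.3% to 67.7%), 25 of 39 shared (64.1%, 47.2% to 78.8%) and 45.9% of all 706. Intergenic intervals made up 7 of 15 gained (46.7%, 21.3% to 73.4%), 0 of 16 lost (exact interval 0% to 20.6%) and 19.3% of all 706. The exact intervals of the promoter share overlapped between gained and lost. Within single pairs, promoters made up 26.5% of gained and 63.6% of lost intervals in males, and 46.9% and 40.3% in females. Intergenic shares of gained and lost were 32.9% and 11% in males, and 21.9% and 17.7% in females. By distance alone the contrast between the sets was smaller. Within 1 kb of the TSS lay 33.3% of gained, 56.2% of lost and 36.4% of all control intervals, and the intervals of gained and lost overlapped. Starts of at least 2 RefSeq coding genes lay within 1 kb of 5 of 16 lost intervals, of 1 of 15 gained intervals and of 27 of 706 (3.82%).

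**Figure D2:**
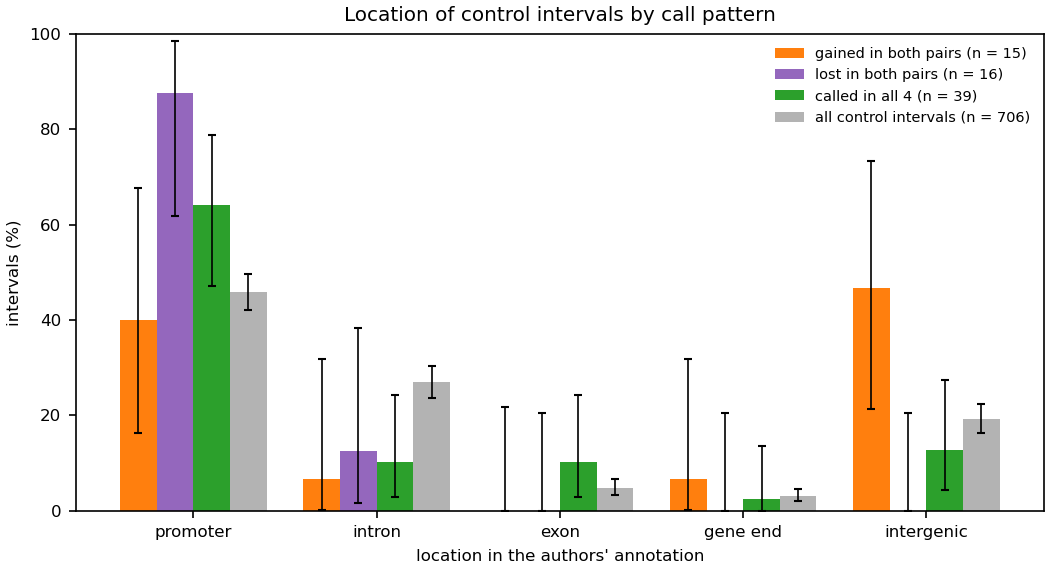
Share of intervals (y axis, %) in each class of the authors' annotation (x axis) for the 15 gained, 16 lost and 39 shared intervals and all 706 control intervals, with exact Clopper-Pearson 95% intervals as bars, which cover counting error only. The lost set stands at 87.5% promoter and 0% intergenic, and the gained set at 40% and 46.7%.

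The misaligned libraries did not enter the choice of members, and they held many of them at both times. Of the 15 gained intervals, male misaligned ZT0 called 14, male misaligned ZT12 13, female misaligned ZT0 9 and female misaligned ZT12 10. The same libraries called 53.5%, 69.1%, 51.4% and 20.7% of all 706 control intervals. None of the 15 was called only at ZT12 in the male misaligned pair, and 4 were in the female misaligned pair. That pattern of calls was found at 17.8% of the 706 intervals in the male misaligned pair and at 2.83% in the female. The male misaligned lists were long, with 1864 peaks at ZT0 and 5542 at ZT12. At the 13 members they called at both times, strength was higher at ZT12 in 13, with a median ratio of 1.97, beside a median of 1.83 at 16 intervals called in all 4 control libraries that lie outside the core clock and without high background. The 6 members called at both times in the female misaligned pair had a median ratio of 0.795, or 0.964 in net summit fragments.

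Of the 16 lost intervals, male misaligned ZT0 called 14, male misaligned ZT12 16, female misaligned ZT0 14 and female misaligned ZT12 2. In the female misaligned pair 12 members were called at ZT0 only, a pattern found at 33.6% of the 706 intervals, and in the male misaligned pair 0 were, beside 2.27% of the 706. The 2 female exceptions called at both times were the intervals at Lrp1 and Atl3. The female misaligned lists held 1330 peaks at ZT0 and 221 at ZT12, so the female list was shorter at ZT12 and the male list longer. List length moved with the pattern in both sexes, and its part in it was not tested.

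The 39 intervals called in all 4 libraries (5.52% of 706) comprised 14 intervals nearest a core clock gene, 17 other intervals without high background, and 8 intervals in regions of high background, 6 of them near the start of chromosome 9. The 14 lay at Per1, Per2, Per3, Cry1, Cry2, Nr1d1 (2 intervals), Nr1d2, Bhlhe40, Ciart, Dbp (2 intervals), Tef and Hlf. At each of the 14, strength was higher at ZT12 than at ZT0 in the male pair and in the female pair. The ratio of ZT12 to ZT0 had a median of 2.24 in males (range 1.62 to 3.47) and 2.05 in females (1.14 to 2.88). For the 17 other intervals without high background the median was 1.37 in males, with 14 of 17 above 1, and 1.34 in females, with 12 of 17 above 1. In net summit fragments the clock medians were 1.6 and 2.4, with 14 of 14 above 1 in each sex. Those of the 17 were 0.977 in males, with 7 of 17 above 1, and 1.57 in females, with 15 of 17 above 1.

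The scale of strength rests on the lowest background of each list, which drops out when groups are set side by side within a pair. The clock intervals had a higher median ratio than those 17 intervals in both sexes. The intervals were chosen by calls and not by strength, but clock genes were known to be strong from earlier results on these files, and only 1 library stands behind each value. The 2 ranges overlap in each sex, so single intervals of either group cannot be told apart by their ratio.

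**Figure D3:**
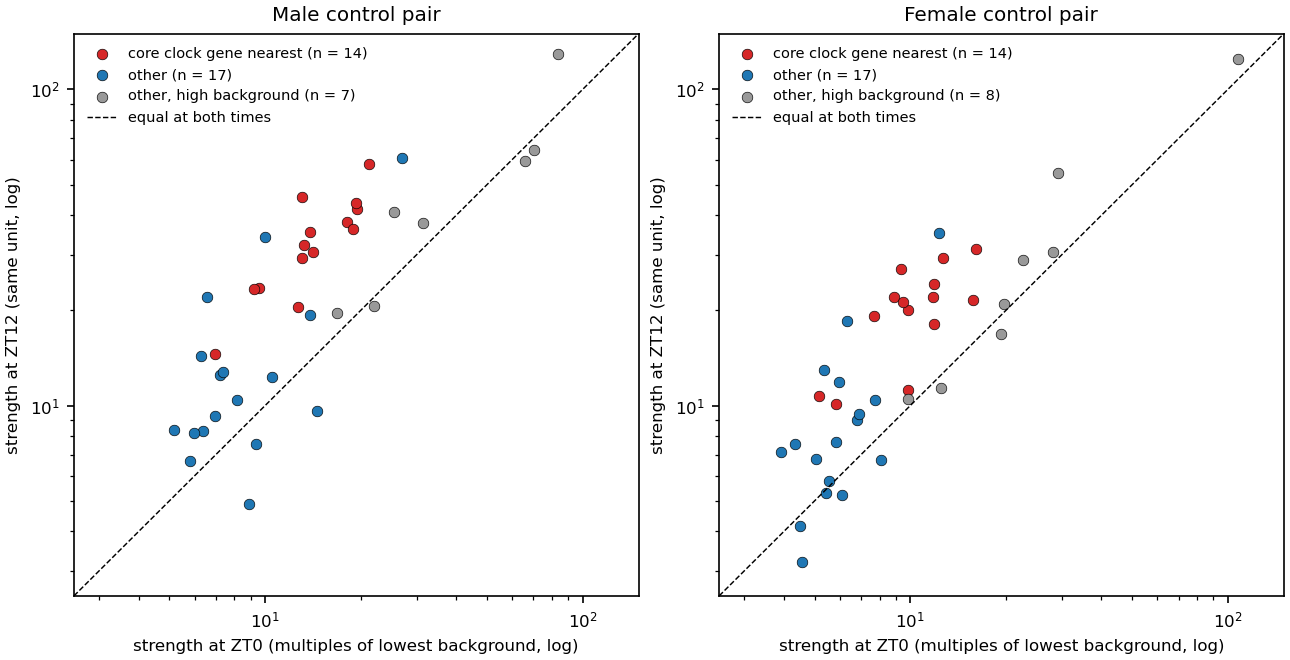
Strength at ZT12 (y axis) against strength at ZT0 (x axis), both log axes in multiples of the lowest local background of the list, for the intervals called in all 4 control libraries, males left and females right; the dashed line marks equal strength. All 14 clock intervals lie above the line in both panels, with median ratios of 2.24 and 2.05, beside 14 and 12 of the 17 other intervals without high background (7 and 15 in net summit fragments).

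Among the repressors, Per2 had the largest male ratio. Its strength was 13.1 in male ZT0, 45.6 in male ZT12, 11.8 in female ZT0 and 22 in female ZT12, ratios of 3.47 and 1.86. Per1 had 18.1, 38.2, 15.8 and 21.6, ratios of 2.11 and 1.37. Per3 had 13.1, 29.2, 9.48 and 21.3, ratios of 2.23 and 2.25. The Per proteins bind CLOCK and BMAL1 together with the Cry proteins. Cry2 had a strength of 9.25 in male ZT0, 23.4 in male ZT12, 5.15 in female ZT0 and 10.7 in female ZT12, ratios of 2.53 and 2.08. Cry1 had 12.7, 20.5, 9.8 and 11.2, and its ratios of 1.62 and 1.14 were the lowest of the 14 in each sex. Its female summit counts were 55 at ZT0 (95% Poisson interval 41.4 to 71.6) and 80 at ZT12 (63.4 to 99.6), over local backgrounds of 7.53 and 16.5. Its male counts were 85 (67.9 to 105) and 96 (77.8 to 117). These counting intervals overlap in both sexes. They are for raw counts, with the background included and depth unknown, and overlap of separate intervals is not a test of a difference. Of the 14 clock intervals, 11 in males and 13 in females had a ZT12 counting interval wholly above that of ZT0, and the male ones that overlapped were at Cry1, Bhlhe40 and the upstream Nr1d1 site. Of the 17 others, 3 in males and 5 in females did, while 2 in males and 0 in females had a ZT12 counting interval wholly below that of ZT0.

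Nr1d2 gave the highest strength of the clock intervals in each of the 4 libraries. It had 141 summit fragments in male ZT0 (119 to 166), 262 in male ZT12 (231 to 296), 86 in female ZT0 (68.8 to 106) and 189 in female ZT12 (163 to 218). Its strength was 21.2, 58, 16.1 and 31.2 in the same order, ratios of 2.74 and 1.94. The counting intervals do not overlap between the times in either sex. The Nr1d1 interval in the gene (chromosome 11, 98772547 to 98775932) had a strength of 19.5, 41.9, 12.7 and 29.4. The interval at -12999 bp from its TSS had 18.9, 36.1, 8.91 and 22.1. By strength, both Nr1d1 sites thus had ZT12 values about as far above ZT0 in each sex, with ratios from 1.91 to 2.48. In net summit fragments the likeness between the sexes was lost, with ratios of 1.53 and 1.36 in males and 2.72 and 2.91 in females.

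The D-box factors Dbp, Tef and Hlf are transcription factors that carry the clock's output to metabolic genes. The Dbp interval starting at 45704290 on chromosome 7 had a strength of 13.3 in male ZT0, 32.1 in male ZT12, 9.38 in female ZT0 and 27.1 in female ZT12. Its female ratio, 2.88, was the highest female ratio of the 14. The Dbp interval starting at 45706886 had 13.8, 35.4, 11.9 and 18.1. Tef had 19.4, 43.7, 11.9 and 24.3, and Hlf, bound at -30177 bp from its annotated TSS, had 9.59, 23.5, 9.8 and 20.1. The repressor Ciart, also called Chrono, had 14.2, 30.5, 7.67 and 19.2, and Bhlhe40 had 6.95, 14.6, 5.85 and 10.1. In every one of these the ZT12 value lay above the ZT0 value of the same sex.

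**Figure D4:**
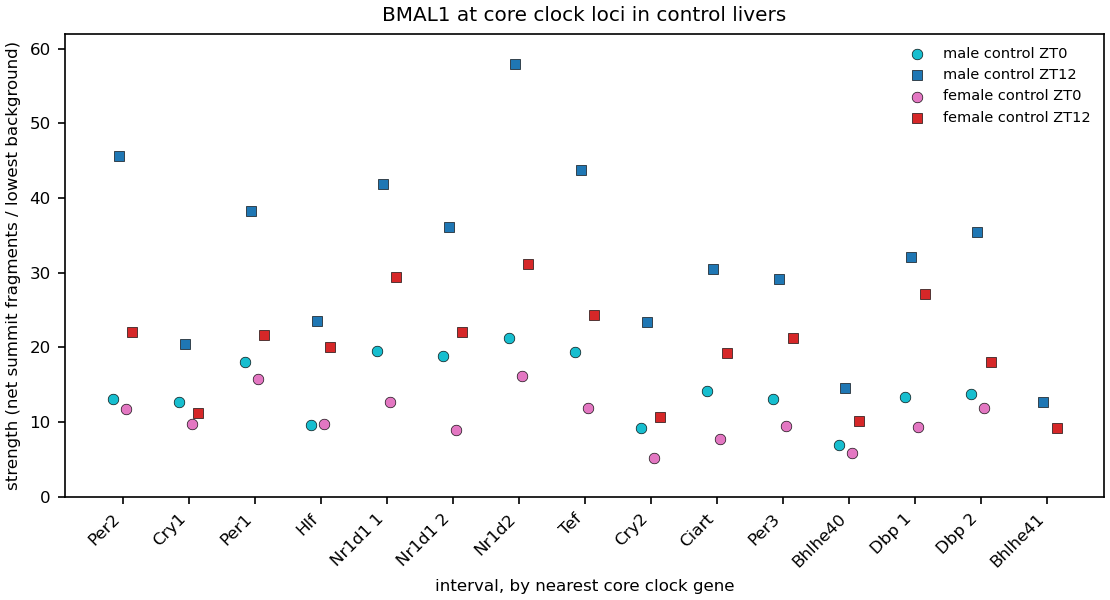
Strength (y axis, multiples of the lowest local background of the list) in the 4 control libraries at the 14 clock intervals called in all 4 and at Bhlhe41 (x axis, each point 1 library); genes with 2 intervals are numbered in genome order. Squares (ZT12) lie above circles (ZT0) of the same sex at all 14, and Bhlhe41 has ZT12 points only.

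The wider clock list was scored by whether a gene had a peak at most 10 kb from its TSS. Of its 22 genes, the activators Arntl, Clock and Npas2 and the casein kinases Csnk1d and Csnk1e had none in any control library. Per and Cry genes scored 4 of 5 in each of the 4 libraries, because the Per3 interval lay at -13207 bp from the annotated TSS, although it covers a RefSeq start of Per3. Of the REV-ERB and ROR receptor genes, Nr1d1 and Nr1d2 scored in all 4 libraries. D-box factors scored 3 of 4 in male ZT0 and 2 of 4 in the other libraries, where Hlf lay beyond 10 kb. Nfil3 scored in none. By this count the clock list differed between the times at Bhlhe41 in both sexes and at Hlf in males only. For comparison, 0.904% of RefSeq coding genes had such a peak in male ZT0, 0.539% in male ZT12, 0.475% in female ZT0 and 0.288% in female ZT12.

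Rank shifts gave a measure that does not need a common scale. Within each pair, the intervals called at both times were ranked by -log10 q in each list, and the shift was the ZT0 rank minus the ZT12 rank, so that a positive shift means a better rank at ZT12. Ranks at ZT0 and ZT12 had a Spearman rho of 0.712 over the 131 male intervals and 0.659 over the 42 female intervals, given as a description across intervals. Of the 39 intervals called in all 4, 16 ranked better at ZT12 in both pairs, 13 ranked worse in both, 6 moved in opposite ways and 4 were tied in at least 1 pair. The male and female shifts had a rho of 0.674 over the 39. Of the 14 clock intervals, 12 ranked better at ZT12 in males, 1 was tied and 1 ranked worse. In females 10 ranked better and 4 worse. Of the 17 other intervals without high background, 6 ranked better at ZT12 in males, 1 was tied and 10 ranked worse. In females 7 of these 17 ranked better, 1 was tied and 9 ranked worse.

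The largest shifts toward ZT12 in both pairs were at Igsf8, RP23-134H19.3, Ndufb9, Cry2 and Gm10717. The interval near Igsf8, an immunoglobulin superfamily gene (chromosome 1, 172309774 to 172310576), had a -log10 q of 16.4 in male ZT0, 54.2 in male ZT12, 5.63 in female ZT0 and 39.5 in female ZT12. It moved up by 40.5 places of 131 in males and 20 of 42 in females. RP23-134H19.3 (chromosome 5, 148994892 to 148995612) had 28.4, 147, 11.3 and 65.9, with shifts of 32 and 10. The interval within Mtss1, a gene of membrane curvature (annotated to Ndufb9), had 18.8, 38.1, 3.61 and 18.3, with shifts of 24.5 and 16. In all 3 both ZT12 values exceeded the ZT0 value of the same sex. Cry2 had shifts of 26 and 14. Gm10717 (starting at 3029429 on chromosome 9) had shifts of 12 and 19, in a region of high background.

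The largest shifts the other way were at promoter or distal sites of genes outside the clock. At 1600020E01Rik, 92 bp from Pcbp1, an RNA-binding protein gene, -log10 q was 33.6 in male ZT0, 4.64 in male ZT12, 6.21 in female ZT0 and 2.29 in female ZT12. Its shifts were -89.5 and -8. Ccne1, the gene of cyclin E1, had 68, 20.6, 21.2 and 11.9 at a site 14492 bp from its TSS, with shifts of -51 and -21. Usp28, a deubiquitinase gene, had 36.6, 13.1, 4.82 and 2.15, with shifts of -61 and -4. These 3 were the intervals without high background whose strength was lower at ZT12 in both sexes, with ratios of 0.548 and 0.925 at Pcbp1, 0.659 and 0.831 at Ccne1, and 0.804 and 0.705 at Usp28. The female ratio of net summit fragments at Pcbp1 was 1.08, while Ccne1 (0.469 and 0.972) and Usp28 (0.573 and 0.825) stayed below 1. In males the summit counts at Ccne1 were 97 (78.7 to 118) at ZT0 and 49 (36.3 to 64.8) at ZT12, and do not overlap. In females they were 44 (32 to 59.1) and 49 (36.3 to 64.8), and these overlap. RP24-277J22.4 at Cnn3, with shifts of -34 and -10, and Pard6b, with -31.5 and -7, complete the 5. Both groups of 5 were chosen by the mean of the male and female shifts, which gives the longer male ranking more weight. Ranked among the 39 intervals only, Ccne1 shifted by -20 and -19, the Pcbp1 site by -18 and -7 and Pard6b by -2 and -7.

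**Figure D5:**
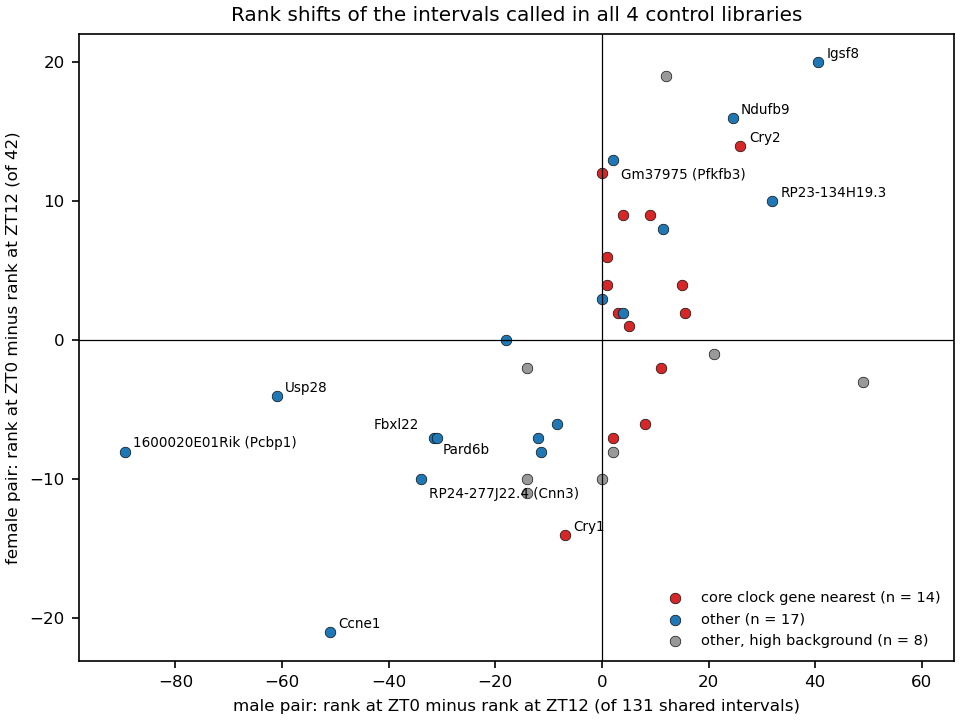
Rank at ZT0 minus rank at ZT12 in the male pair (x axis, of 131 shared intervals) and in the female pair (y axis, of 42) for the 39 intervals called in all 4 control libraries; points to the right and above 0 ranked better at ZT12. Among intervals moving the same way in both pairs, Igsf8 (40.5 and 20) had the largest mean shift toward ZT12. The site near Pcbp1, 1600020E01Rik (-89.5 and -8), had the largest mean shift the other way, followed by Ccne1 (-51 and -21). That mean gives the longer male ranking more weight. Ranked among the 39 intervals only, Ccne1 shifted by -20 and -19 and the Pcbp1 site by -18 and -7. Cry1 (-7 and -14) is the clock interval that ranked worse in both pairs.

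The interval with the best mean rank in the 4 lists was not at a clock gene. It covered the RefSeq start of Kmt2a, a histone methyltransferase gene (chromosome 9, 44881170 to 44881971, annotated by the authors to Gm26249), and ranked 1 in male ZT0, 1 in male ZT12, 4 in female ZT0 and 1 in female ZT12. Its summit counts were 172, 272, 65 and 211 in that order, and its ratios of 2.26 and 2.85 lay within the range of the clock intervals. No CACGTG was present in the Kmt2a promoter window. Next in mean rank came Nr1d2, Gm10718 (high background), the Nr1d1 gene interval, Per1, Tef, Per2, the upstream Nr1d1 interval, Gm10721 (high background) and the Dbp interval starting at 45706886. Per2 counts as high background because of 1 peak in a misaligned library.

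The other 10 shared intervals without high background lay at genes of varied function. Bnip3, a mitophagy receptor gene, had a -log10 q of 62.4 in male ZT0, 66.2 in male ZT12, 12.1 in female ZT0 and 15.1 in female ZT12. Pfkfb3, which sets the level of a glycolytic activator, had 13.1, 15.4, 2.71 and 12.9 (annotated to Gm37975). Gpr146, a receptor gene, had 22.6, 31.4, 7.96 and 14.9, and Mapk6 (annotated to 4933433G15Rik) had 21.9, 31.6, 10.4 and 29.5. These 4 were higher at ZT12 in both sexes by strength, and in net summit fragments all but Bnip3 in males (0.998) were. Adh5, Jade1 (annotated to Gm31266), Fbxl22 and Cnn3 had strength ratios of 1.16 to 1.33 in males and 1.05 to 1.37 in females, and in net summit fragments all 4 were below 1 in males, 0.829 to 0.948, and above 1 in females. Gm20479 and Pard6b had male ratios of 1.37 and 1.14 and female ratios of 0.86 and 0.97, and in net summit fragments both signs turn, with 0.977 and 0.815 in males and 1.01 and 1.14 in females.

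The same intervals were read in the misaligned libraries, which the choice of members did not use. At the 14 clock intervals the ratio of ZT12 to ZT0 strength had a median of 1.56 in the male misaligned pair, with 14 of 14 above 1. In the female misaligned pair it had a median of 0.827, with 2 of 14 above 1. At the 17 other intervals without high background the medians were 1.83 over 16 intervals in males and 0.674 over 13 in females. In net summit fragments the female medians were 1 at the clock intervals, with 7 of 14 above 1, and 0.818 at the others, with 5 of 13 above 1. In the male misaligned pair the clock median thus did not stand above that of the others. In the female misaligned pair it did on both scales, while the direction of the female clock median itself depended on the scale. All 14 clock intervals were called in each of the 4 misaligned libraries. Of the 17 others, male misaligned ZT0 called 16, male misaligned ZT12 17, female misaligned ZT0 17 and female misaligned ZT12 13.

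Outside the core clock, most calls in the lists of liver functions were in male libraries, whose lists also held more coding genes with a peak in all, 198 at ZT0 and 118 at ZT12 against 104 and 63 in females. Among 12 clock output genes, male ZT0 had Usp2, Wee1, Klf10 and Ppara and male ZT12 had Usp2, Por and Ppara. By the authors' nearest gene, neither female library had any. That count leaves out the gained interval over a RefSeq start of Por, annotated to Gm16061, which female ZT12 called. Ppara, a nuclear receptor of fatty acid breakdown, had a -log10 q of 18.8 in male ZT0 and 14.2 in male ZT12. Usp2, a deubiquitinase, had 8.66 and 23.6 at the interval called at both times. A further Usp2 interval, at -7678 bp from the TSS, was called in male ZT0 (15.5) and not in male ZT12. The cell cycle kinase gene Wee1 (12.4) and Klf10 (7.06) were called at ZT0 and not at ZT12. Usp2 and Ppara were thus the output genes called at both times in males.

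Among 14 genes of glucose metabolism and insulin signalling, Slc2a2, the hepatocyte glucose transporter, had a -log10 q of 13.9 in male ZT0, 9.02 in male ZT12 and 2.58 in female ZT12. Pck1, an enzyme of glucose synthesis, was called in male ZT12 only (6.99), and Ppp1r3c, a glycogen targeting subunit, in male ZT0 only (17.2). Fbp1, at -35551 bp, was called in male ZT0 (4.18). Of 14 lipogenesis genes, Thrsp had 16.5 in male ZT0 and 52.9 in male ZT12, Dgat2, which makes triglyceride, was called in male ZT12 (25.8), and Pnpla3, at -11600 bp, in male ZT0 (4.77). Among cholesterol synthesis genes, Insig1, which holds back sterol production, was called in male ZT0 (13.2) and in no other control library.

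Of 12 bile acid and xenobiotic genes, Nr0b2, a repressor of bile acid synthesis, was called in male ZT12 (10) together with Por. Of 10 genes of the glucocorticoid and feeding response, Klf15 had a -log10 q of 33.3 in male ZT0, 44.6 in male ZT12 and 26.9 in female ZT12 and no call in female ZT0, and Tsc22d3, at 28093 bp, had 27 in male ZT12. This Klf15 interval, at -1560 bp from the TSS, was thus gained in the female pair and called at both times in the male pair. A further Klf15 interval, at -2882 bp, was called in male ZT0 (10.8) and in no other control library. Rbp4 was the hepatocyte secretory gene of 12 with a call, in male ZT12 (5.96). Hepatocyte transcription factors, heat shock genes, and markers of Kupffer and myeloid, stellate, endothelial, cholangiocyte and lymphocyte cells had no peak within 10 kb in any control library. Peaks of a clock factor do not show which cells were present, so the liver label could not be checked from these lists.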

How the data were processed

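BMAL1 chromatin immunoprecipitation libraries were read from the deposited peak lists. The submitters' processing notes name BWA 0.7.17-r1188, MACS2 2.2.7.1 and the build GRCm38. The caller's threshold, the depth and the use of the IgG libraries are not given in the sources used here. Each deposited list holds, per peak, the authors' score, their fold enrichment (a ratio), -log10 p and -log10 q. A deposited table joins all 9986 peaks of 8 lists in 7043 intervals and records the calls, nearest gene and annotation, and its calls matched the lists.

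From the fold and -log10 p of a peak, the whole number of fragments at its summit and the local background were solved for (relative tolerance 0.0001). This worked for 99.73% to 100% of the peaks of a control list, and 1 peak at Gm10718 in male ZT0 has no value. The recovery and the set rules were tested on simulated data. An interval has high background where a peak in any of the 8 lists had at least 5 times the lowest background. Nearest RefSeq coding genes and promoter windows are of GRCm38.p6. Python 3.11.15, pandas 2.3.3, scipy 1.17.1 and matplotlib 3.10.9 were used.

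Named were core clock genes, the nearest genes of the gained and lost intervals, the 10 shared intervals of best mean rank, the 5 with the largest and the 5 with the smallest mean shift among those moving the same way, the 5 strongest gained and lost in each pair, and up to 4 members a list; all 16 lost and the other shared intervals were added after their values were seen. A few of the genes so named are not reported here. Members and lists were chosen with earlier results of these data known.

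Alternatives were only peaks with -log10 q from 3 up, no other contigs than chromosomes 1 to 19, X or Y, no high background, lists of equal length, overlap of at least 50% of both peaks, other rank measures, and other distances for promoters and gene lists. Chosen after seeing the data were ranks among the 39 intervals, the authors' promoter class and net summit fragments without scaling.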

Additional observations from a re-analysis of the deposited data

Results flagged for a closer look

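Some intervals changed calls in opposite ways in the sexes. At 6 intervals (0.85% of 706) the call was at ZT12 only in males and at ZT0 only in females. At 14 (1.98%) it was at ZT0 only in males and at ZT12 only in females. The sets that changed the same way in both sexes held 15 gained (2.12%) and 16 lost (2.27%) intervals. With 1 library a group the difference between the sexes was not tested. The 6 were nearest Fzd5, Tmem106a, Gm20732, Gm23215 (high background), Gm12967 and Yif1b, and their female ZT0 -log10 q ran from 1.55 (Fzd5) to 7.73 (Yif1b). Among the 14, Sertad1, a gene of cell cycle control, had a -log10 q of 19.3 in male ZT0 and 14.4 in female ZT12, Slc30a1, a zinc exporter gene, had 7.16 and 14.2, and Mapk8, the kinase gene of JNK1, had 10.4 and 11.7. The others included intervals nearest Hnrnph3, Cdyl, Scaf11, Atp6v0e, Atad1, Gm14212, Pnrc1, Rint1, Nav2 and Fam92b.

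At the 14 core clock intervals called in all 4 control libraries, the female misaligned pair had a median strength ratio of ZT12 to ZT0 of 0.827, with 2 of 14 above 1, while the female control pair had 2.05, with 14 of 14 above 1. In net summit fragments, without dividing by the lowest background, the female misaligned median was 1, with 7 of 14 above 1, and the female control median 2.4, with 14 of 14. This difference between treatments was not tested.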

How the results depend on the processing

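The 15 gained intervals were all kept with peaks of -log10 q of at least 3 and with lists of equal length (17 intervals), and 13 were left without high background. The lost set fell to 10 with -log10 q of at least 3 and to 10 with lists of equal length, each within the 16. The female ratio of peak numbers was 0.977 with -log10 q of at least 3. The share of ZT0 peaks overlapped at ZT12 was 42.1% in males and 30.5% in females with lists of equal length, and 32% in females with -log10 q of at least 3. Spearman's rho of ranks was, in males, 0.756 by fold enrichment, 0.712 by score, 0.707 without high background and 0.71 by the sum over peaks; in females it was 0.676, 0.662, 0.636 and 0.659. Of the 39 shared intervals, 22 moved the same way in both pairs by fold enrichment and 33 of 38 by net summit fragments, against 29. With ranks among the 39 intervals only, 26 did. Within 1 kb of the TSS, core clock genes with a peak numbered 5 in each of the 4 libraries. The promoter share was 81.2% for lost and 69.2% for shared intervals within 5 kb, and 87.5% and 64.1% by the authors' class. In net summit fragments, a scale added after seeing the data, 7 of the 17 other shared intervals had a male ratio above 1 in place of 14, and 7 of 16 lost members exceeded the male ZT12 median in place of 0. Depth is unknown, each group is 1 pool of mice, and no replicate could be left out.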

Other observations

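Several clock genes had further sites called in fewer libraries. Per1 had an interval at -1378 bp from its TSS with a -log10 q of 22.3 in male ZT0 and 31 in male ZT12 and no female call. Per2 had an interval at 3661 bp called in male ZT12 only (11.5). Cry2 had an interval at -1804 bp with 33.3 in male ZT0, 48.8 in male ZT12 and 34.2 in female ZT12, and no call in female ZT0.

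The strongest calls that changed within a pair were these. In males, Foxo3, a transcription factor gene of the insulin pathway (-log10 q 37.6), Zfp292 (34.5), Cyth1 (26.9), Hes1, a repressor of the Notch pathway (24.1), and a site 100972 bp from Gm26501 (41.3) were called at ZT0 and not at ZT12. The 5 strongest male calls at ZT12 only all lay in regions of high background, 2 near the start of chromosome 9 and 3 on the Y chromosome. In females, E330011M16Rik at Coq10b, a mitochondrial coenzyme Q gene (50.6), 1810013L24Rik (41) and Fam76a (39.4) were called at ZT12 and not at ZT0, and male libraries called all 3 at both times. The strongest female call at ZT12 only, nearest Gm11168 (55.8), lay in a region of high background. So did the strongest at ZT0 only, nearest Gm17535 (39.8).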
